A study of Mus musculus with 2 samples.

Results

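Matrix metalloproteinases (MMPs) and their tissue inhibitors (TIMPs) were followed across the cells of healthy and carbon tetrachloride (CCl4)-injured mouse liver, to describe which cells carry transcripts of enzymes that cut the matrix and which carry transcripts of proteins that protect it. The members were 10 genes, 7 MMPs (Mmp2, Mmp3, Mmp9, Mmp13, Mmp14, Mmp19 and Mmp23) and 3 TIMPs (Timp1, Timp2 and Timp3), chosen by name and matched by Ensembl identifier among the 30406 genes present in both deposited matrices. Those matrices hold 26 Mmp and Timp genes in all, of which 16 were not members. Liver cells of Col1a2CreER:Rosa26tdTomato mice, a line in which a Col1a2-driven, tamoxifen-dependent Cre can label collagen-expressing cells, were profiled by 10x Genomics 3′ single-cell RNA-seq in 2 libraries. The healthy library came from uninjured animals, and the CCl4 library from animals injured with the hepatotoxin, which the study's methods give as intraperitoneal injections of 10% CCl4 in corn oil (2.5 µL per g), 2 per week for 12 weeks, begun at 8 to 10 weeks of age. Both groups carried the same alleles, the labels do not say how many animals went into a library, and whether these animals received tamoxifen is not given in the labels. Cells were released by pronase and collagenase perfusion and cleaned on a Nycodenz gradient, and the study's methods add a depletion of CD45+ cells with magnetic beads.

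After filtering, 5602 healthy and 7293 CCl4 cells remained, with a median of 6784 and 11896 UMIs (unique molecular identifiers, which count captured transcripts) per cell. They formed 23 clusters, of which 20 were named "X-like" from marker genes of 9 cell classes, 2 were led by cell-cycle genes and are called proliferating, and 1 stayed unnamed. The libraries differed in make-up: 63.6% of healthy cells were endothelial-like and 25.6% cholangiocyte-like, whereas 62.9% of CCl4 cells were mesenchymal-like and 12.1% mesothelial-like, and in a perfused, gradient-purified and CD45-depleted suspension such shares cannot be told apart from cell recovery. Hepatocyte-like cells made up 5.71% and 1.41% of the libraries although the labels speak of hepatocytes and of whole liver cells. The unnamed cluster, 225 CCl4 cells (3.09%) of very low depth, carried 14 hepatocyte markers but none among its leading genes. Only 26 mesenchymal-like cells were found in the healthy library, and the CCl4 library still held 179 macrophage and monocyte-, 86 neutrophil-, 109 T and NK cell- and 132 B and plasma cell-like cells. The B and plasma cell-like cluster carried 18 dendritic markers beside its 19 B and plasma cell ones, with Siglech among its leading genes. It may thus hold dendritic cells, and is called lymphoid below by its name only. The 2 files shared 10 cell barcodes. With 1 library per condition no test between conditions was possible, cells are not replicates, and every interval below is a 95% interval that covers counting error only. Levels are CPM, the UMIs of a gene per 1000000 UMIs summed over the cells of a class or cluster in 1 library. As a 3′ UMI counts a transcript once whatever its length, UMIs of MMPs and TIMPs were also set against each other, though genes can differ in how well they are captured.

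MMPs are zinc-dependent endopeptidases, mostly secreted as inactive proenzymes, that cut collagens and other matrix proteins outside the cell, while a few, such as MMP14, stay anchored in the plasma membrane. TIMPs bind the active site of MMPs and block them, and TIMP2 has a second role: together with membrane-bound MMP14 it holds pro-MMP2 at the cell surface, where MMP14 activates it. In liver fibrosis the balance between these enzymes and inhibitors is known to bear on whether scar collagen builds up or is removed, and activated hepatic stellate cells and macrophages are classical sources of both.

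The members did not share a single cell of origin. Among the named classes, 3 of the 10 members were highest in the mesenchymal-like cells of the CCl4 library (Mmp2, Mmp3 and Mmp23), Mmp14 was highest in CCl4 endothelial-like cells, Mmp9 in neutrophil-like cells, Mmp13 in macrophage and monocyte-like cells and Mmp19 in healthy hepatocyte-like cells. The 3 inhibitors each led in a different place: Timp1 in CCl4 mesothelial-like cells, Timp2 in healthy mesothelial-like cells and Timp3 in healthy endothelial-like cells. When mesenchymal-like cells were set against all other CCl4 cells, Mmp2 was 8.85-fold (interval 8.33 to 9.42), Mmp3 5.98-fold (3.14 to 12.8) and Mmp23 3.22-fold (3.06 to 3.38) higher, a 2-fold excess that 9.23% of the 15398 genes compared also showed. In the same comparison the ratios of the 3 TIMPs were 0.812 for Timp1, 1.05 for Timp2 and 1.04 for Timp3. These ratios depend on which cells are pooled, as the other cells included mesothelial-like cells at 431 CPM of Timp1 and 1290 of Timp2. Of the 16885 mesenchymal-like Timp1 UMIs, 11857 came from 1 cluster of 695 cells, led by Serpinb2 and Enpp2. The name of that cluster rests on fewer genes, as described below.

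**Figure D1:**
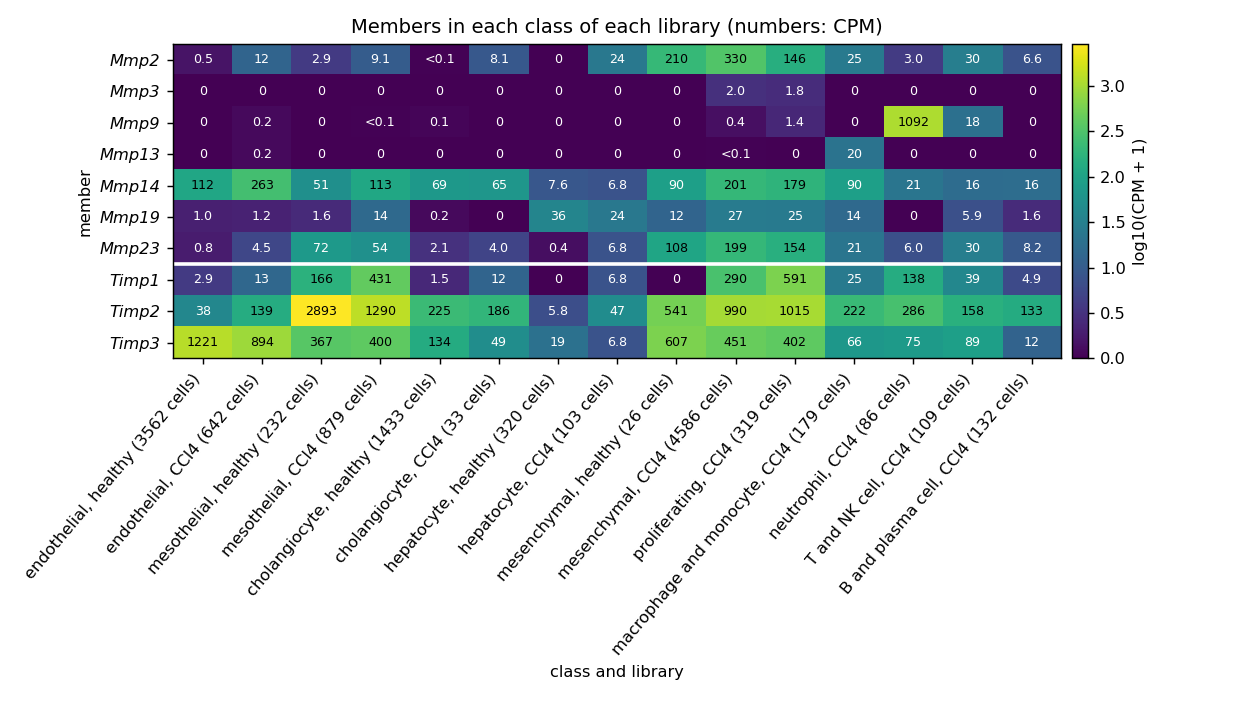
CPM of the 10 members (rows, MMPs above the white line and TIMPs below) in each class of each library with at least 20 cells (columns, number of cells in brackets), coloured by log10(CPM + 1). Mmp9 stands out in the neutrophil-like column at 1092 CPM, Timp2 in healthy mesothelial-like cells at 2893 CPM and Timp3 in healthy endothelial-like cells at 1221 CPM.

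Mmp2 (ENSMUSG00000031740; chr8:92827290-92853421 in RefSeq's GRCm38.p6 annotation, the assembly that the submitters' notes call mm10) encodes gelatinase A, which degrades denatured collagen and basement membrane collagen. It had 58 UMIs in the whole healthy library, 35 of them in the 26 mesenchymal-like cells, against 20335 in the CCl4 library. Of the latter, 94.6% fell in mesenchymal-like cells, where the level was 330 CPM (326 to 335) and 70.3% of cells had a UMI. The 26 healthy mesenchymal-like cells stood at 210 CPM (146 to 292), or 131 (81.0 to 200.04) without the 1 cell that held 14 of their UMIs, and the proliferating CCl4 cells at 146 (137 to 157). Among the other named classes, CCl4 T and NK cell-like cells, macrophage and monocyte-like, hepatocyte-like, endothelial-like and mesothelial-like cells followed between 29.6 and 9.07 CPM, each neighbour in that order overlapping the next. As lymphoid cells are not a main source of gelatinase A, their levels are given below beside low values of other classes, and values near them are not read as expression. The T and NK cell-like value rests on 15 UMIs, 10 of them in 1 cell, and was 10.2 CPM (3.32 to 23.8) without that cell, while B and plasma cell-like cells had 6.58 CPM (1.79 to 16.8).

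Within the mesenchymal-like class, Mmp2 split the clusters widely. The CCl4 cells held 5 clusters, each described by its leading genes. A cluster of 1342 cells led by Dpep1, Thbs4 and Mfap4 carried 27 of the mesenchymal markers. A cluster of 1654 cells led by Bco1, Colec10 and Angptl6 carried 21 markers of hepatic stellate cells, the vitamin A-storing pericytes of the sinusoid, among them Lrat. A cluster of 695 cells led by Serpinb2, Enpp2 and Cxcl5 carried 7 markers of portal-type fibroblasts but only 6 mesenchymal markers and also 4 mesothelial ones, so its name rests on fewer genes. The remaining clusters were an 85-cell cluster with 17 stellate and 10 endothelial markers and an 810-cell cluster of low depth led by Pln and the globin Hba-a1, with 0.113 times the median UMIs of its library. Mmp2 was 640 CPM (628 to 651) in the Dpep1-Thbs4 cluster, 268 (261 to 274) in the stellate-marker cluster and 37.2 in the Serpinb2-Enpp2 cluster, where 486 UMIs were counted in 695 cells. The Dpep1-Thbs4 cluster thus exceeded the Serpinb2-Enpp2 cluster 17.2-fold (15.7 to 18.8) and held 57.6% of all Mmp2 UMIs of the library with 18.4% of its cells.

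Mmp14 (ENSMUSG00000000957; chr14:54431598-54442456), the membrane-anchored collagenase that activates pro-MMP2, was the most evenly spread MMP. In the CCl4 library it reached 263 CPM (248 to 279) in endothelial-like cells, 201 (197 to 205) in mesenchymal-like cells, 113 (108 to 119) in mesothelial-like cells and 90.1 in macrophage and monocyte-like cells. In the healthy library it stood at 112 CPM in endothelial-like, 68.9 in cholangiocyte-like and 51.3 in mesothelial-like cells, and at 7.60 in hepatocyte-like cells. CCl4 B and plasma cell- and T and NK cell-like cells lay at 16.4 and 15.8 CPM, so all of the classes named before them, hepatocyte-like cells excepted, were above that level. Among mesenchymal-like clusters the order was that of Mmp2 only at its top, with 302 CPM in the Dpep1-Thbs4 cluster, 173 in the Serpinb2-Enpp2 cluster and 136 in the stellate-marker cluster.

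The 3 genes of the cell-surface activation complex, Mmp2, Mmp14 and Timp2, were next looked for in the same cells. A UMI of all 3 was present in 1204 of the 1342 Dpep1-Thbs4 cells (89.7%, exact binomial interval 88.0 to 91.3), in 68.3% of the stellate-marker cells and in 20.7% of the Serpinb2-Enpp2 cells. In CCl4 mesothelial-like cells the share was 8.53%, in CCl4 endothelial-like cells 3.12% and in healthy endothelial-like cells 0.0281% (1 of 3562 cells). Of the 26 healthy mesenchymal-like cells, 5 had all 3 (19.2%, 6.55 to 39.4). Such shares grow with depth, so the share expected at a common 2000 UMIs per cell was also taken, without the cells that had fewer. It was 26.0% in the Dpep1-Thbs4 cluster, 7.46% in the stellate-marker cluster, 2.73% in the Serpinb2-Enpp2 cluster and 0.312% in CCl4 mesothelial-like cells. In the 22 healthy mesenchymal-like cells deep enough it was 5.04%. The order of the 3 large mesenchymal-like clusters was the same at either depth, whereas CCl4 endothelial-like cells (0.346% after thinning) no longer lay below mesothelial-like ones. In the 810-cell low-depth cluster the share was 9.38% over all cells, and 10.9% at 2000 UMIs in the 281 cells deep enough.

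**Figure D2:**
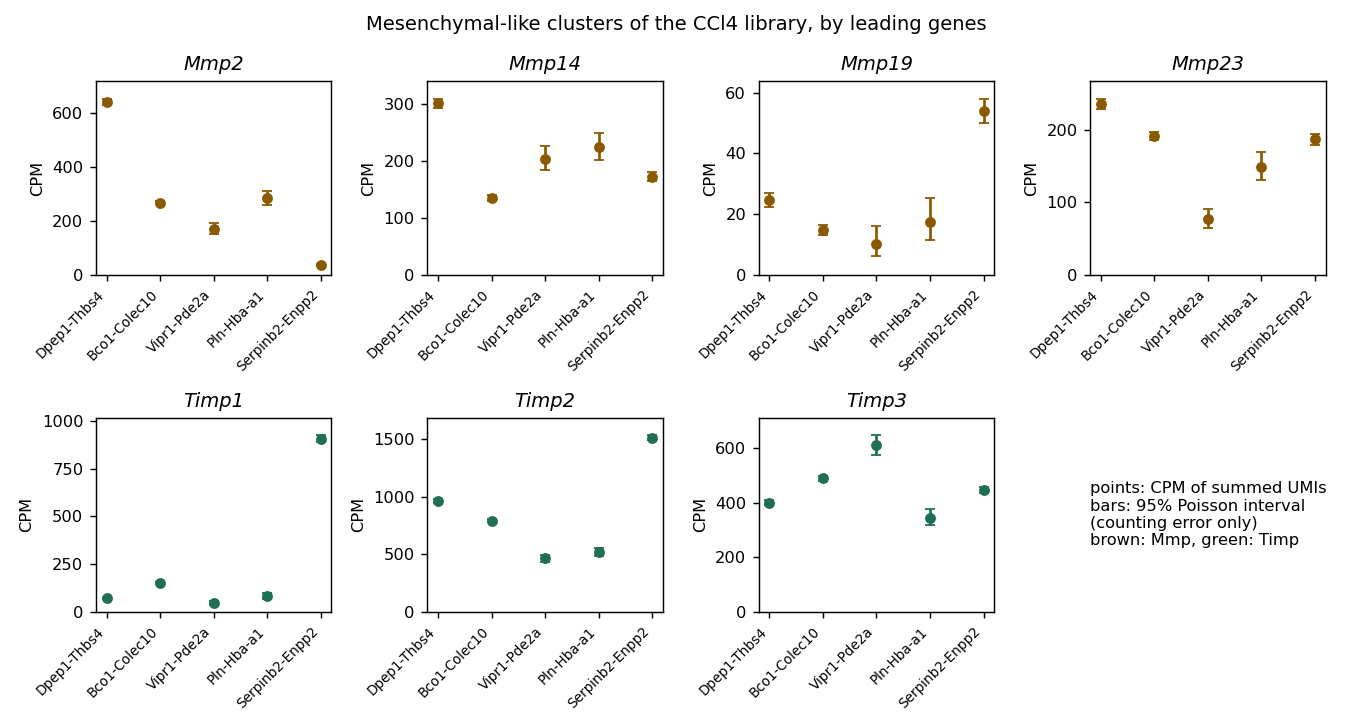
CPM of 7 members in the 5 mesenchymal-like clusters of the CCl4 library, named by their first leading genes; points are CPM of summed UMIs and bars 95% Poisson intervals, with each axis starting at 0. Mmp2 is highest in the Dpep1-Thbs4 cluster (640 CPM) and lowest in the Serpinb2-Enpp2 cluster (37.2 CPM), whereas Timp1 runs the other way between these clusters (69.9 and 909 CPM).

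Mmp23 (ENSMUSG00000029061; chr4:155650655-155654539), a small MMP that enters the membrane as a type II protein and is released by furin-like cleavage, was mostly mesenchymal and mesothelial. It had 199 CPM (196 to 203) in CCl4 mesenchymal-like cells, 108 (64.1 to 171) in their 26 healthy counterparts, 72.1 (63.9 to 81.1) in healthy and 54.1 (50.5 to 57.8) in CCl4 mesothelial-like cells. Proliferating cells had 154 CPM, and all other named classes were at or below the 29.6 CPM of T and NK cell-like cells. Unlike Mmp2 it varied little among the 3 large mesenchymal-like clusters, from 187 CPM (Serpinb2-Enpp2) over 191 (stellate-marker) to 235 (Dpep1-Thbs4). The 85-cell cluster with endothelial markers was lower, at 77.2 CPM.

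Mmp19 (ENSMUSG00000025355; chr10:128790910-128800827) encodes a secreted MMP with basement membrane substrates. It was a hepatocyte transcript in the healthy library: 100 of 135 UMIs fell in hepatocyte-like cells, at 36.2 CPM (29.5 to 44.0). Of these, 83 UMIs came from 48 cells of a deep cluster (median 42577 UMIs) led by Slco1b2 and Mup genes, 79.2% of which had a UMI of it. The CCl4 hepatocyte-like cells gave 7 UMIs (23.6 CPM, 9.50 to 48.7), too few to tell them from the healthy ones, with a ratio of 0.653 (0.256 to 1.40). The CCl4 cells all lay outside the deep cluster, and within the cluster shared by both libraries the ratio turned to 1.25 (0.438 to 3.17), at 18.9 CPM in healthy cells. In the CCl4 library, by contrast, 79.3% of 1951 UMIs were mesenchymal, with 53.9 CPM in the Serpinb2-Enpp2 cluster, 24.6 in the Dpep1-Thbs4 cluster and 14.8 in the stellate-marker cluster. Here the Serpinb2-Enpp2 cluster led, the reverse of Mmp2.

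The remaining 3 MMPs were rare transcripts confined mostly to small groups of cells. Mmp9 (ENSMUSG00000017737; chr2:164940326-164955850), gelatinase B, is stored in neutrophil granules: 363 of its 405 CCl4 UMIs (89.6%) fell in 86 neutrophil-like cells, at 1092 CPM (983 to 1211) with 69.8% of cells positive. The next class was T and NK cell-like cells at 17.8 CPM from 9 UMIs, and macrophage and monocyte-like cells had 0 UMIs (interval up to 3.50 CPM). Mmp13 (ENSMUSG00000050578; chr9:7272514-7283333), the main interstitial collagenase of rodents, had 0 UMIs in the healthy and 24 in the CCl4 library, 21 of them in 5 of the 179 macrophage and monocyte-like cells. Mmp3 (ENSMUSG00000043613; chr9:7445822-7455975), stromelysin-1, which cuts proteoglycans and activates procollagenases, had 0 healthy and 129 CCl4 UMIs. Of these, 104 came from 35 cells of the Serpinb2-Enpp2 cluster and up to 15 from 1 cell, so that the cluster stood at 7.97 CPM against 0.546 in the Dpep1-Thbs4 cluster. Mmp13 and Mmp3 were thus carried by few cells of their class and Mmp9 by most of its class, and the CD45 depletion bears on how many neutrophil- and macrophage-like cells were sampled.

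Upstream sequence was available for 7 of the 10 members in RefSeq (GRCm38.p6). The 100 bases before the annotated start are shown for the rarest of them, Mmp3 and Mmp13, and for the most abundant, Timp2 and Timp3, as the ends of the range in level. Capitals mark TGANTCA, the binding motif of AP-1 factors, and TATAAA, the TATA box motif, searched on both strands.
Mmp3: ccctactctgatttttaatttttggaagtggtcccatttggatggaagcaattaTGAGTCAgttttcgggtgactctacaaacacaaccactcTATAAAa
Mmp13: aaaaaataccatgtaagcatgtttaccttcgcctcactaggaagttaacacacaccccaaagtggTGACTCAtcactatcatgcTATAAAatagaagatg
Timp2: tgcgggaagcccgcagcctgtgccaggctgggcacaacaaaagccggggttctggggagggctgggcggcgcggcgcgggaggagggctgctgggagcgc
Timp3: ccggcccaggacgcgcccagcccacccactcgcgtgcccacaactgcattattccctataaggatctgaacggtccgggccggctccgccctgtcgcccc
These windows are chr9:7445722-7445821 (+ strand), chr9:7272414-7272513 (+), chr11:118355412-118355511 (-) and chr10:86300312-86300411 (+), written in the direction of transcription. In the 250 bases before the start, Mmp3 and Mmp13 each held 1 TGANTCA and 1 TATAAA, and none of Mmp14, Mmp23, Timp1, Timp2 and Timp3 held either. Over 27025 genes, 6.87% held TGANTCA and 13.0% TATAAA in that window. Mmp3 and Mmp13 also had 1 CG dinucleotide each (19.4% of genes had at most 1), against 21 in Timp2, 18 in Timp3, 10 in Mmp14, 13 and 18 in the 2 entries of Mmp23 and 6 in Timp1, where the median gene had 6. The match of letters is a description and says nothing about whether a factor binds there.

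Timp2 (ENSMUSG00000017466; chr11:118301061-118355411) was the most abundant member of the CCl4 library, with 85370 UMIs, and came after Timp3 in the healthy library, with 16172 against 29314 UMIs. Healthy mesothelial-like cells led at 2893 CPM (2839 to 2947) and 100% of their 232 cells had a UMI. CCl4 mesothelial-like cells followed at 1290 CPM (1273 to 1308), CCl4 mesenchymal-like cells at 990 (982 to 998) and healthy mesenchymal-like cells at 541 (435 to 664). Among mesenchymal-like clusters the Serpinb2-Enpp2 cells reached 1514 CPM, above the 964 of the Dpep1-Thbs4 and the 793 of the stellate-marker cells. Cholangiocyte-like cells stood at 225 CPM in the healthy and 186 in the CCl4 library. In the CCl4 library even B and plasma cell- and T and NK cell-like cells had 133 and 158 CPM, and 37.9% and 25.7% of them a UMI, at median depths of 4038 and 4153 UMIs. The B and plasma cell-like cells had only 4.93 CPM of Timp1 and 11.5 of Timp3. Whether their Timp2 is their own or free RNA was not tested.

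Timp1 (ENSMUSG00000001131; chrX:20870166-20874737), the inhibitor long used as a serum marker of liver fibrosis, had 724 healthy and 27329 CCl4 UMIs. In the healthy library 88.1% of its UMIs were in mesothelial-like cells (166 CPM). There 0 UMIs were found in the 26 mesenchymal-like cells (interval up to 22.2 CPM) or in the 320 hepatocyte-like cells (interval up to 1.34 CPM). In the CCl4 library the level was 431 CPM (421 to 441) in mesothelial-like and 290 (286 to 294) in mesenchymal-like cells. The class value hid a wide spread: 909 CPM in the Serpinb2-Enpp2 cluster, 151 in the stellate-marker cluster and 69.9 in the Dpep1-Thbs4 cluster, where the Dpep1-Thbs4 cells had 0.0769 times (0.0725 to 0.0815) the level of the Serpinb2-Enpp2 cells. The latter held 43.4% of the library's Timp1 UMIs with 9.53% of its cells. Of the proliferating clusters, the 145-cell one led by Prc1 and Ube2c had 789 CPM and the 174-cell one led by Kif20a and Ccnb2 had 220 CPM. In the former 1 cell carried 1177 of 2909 Timp1 UMIs, and without it the level was 476 CPM (454 to 499).

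Timp3 (ENSMUSG00000020044; chr10:86300412-86349505), the TIMP that stays bound to the matrix and also inhibits several ADAM proteases, was the endothelial inhibitor. It reached 1221 CPM (1206 to 1237) in healthy and 894 (866 to 923) in CCl4 endothelial-like cells, and 96.7% of the healthy endothelial TIMP UMIs were of this gene. All healthy endothelial clusters were high, with 891 CPM in a low-depth cluster, 1347 in the cluster of 207 cells led by Ccl21a, which carries large-vessel markers, and 1428 in 45 cells of a cluster led by Esm1. Mesenchymal-like cells had 607 CPM (494 to 737) in the healthy and 451 (446 to 457) in the CCl4 library, with 489 in the stellate-marker cluster, and mesothelial-like cells 367 in the healthy and 400 in the CCl4 library. Healthy cholangiocyte-like cells had 134 CPM and healthy hepatocyte-like cells 18.8 CPM. Timp1 lies within Syn1 and Timp3 within Syn3, Mmp2 overlaps the long noncoding Gm45472, Mmp19 overlaps Tmem198b, Mmp23 overlaps Mib2 and Timp2 overlaps Cep295nl, and how reads in such overlaps were treated is not given in the sources used here.

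To compare inhibitor with enzyme in the same cells, the UMIs of the 3 TIMPs were divided by those of the 7 MMPs. MMP here means these 7 members only, whose UMIs the TIMP UMIs outnumbered in nearly every population. MMPs that are no members were left out, and the ratios would be lower with them. Healthy cholangiocyte-like cells also held 1643 UMIs of Mmp15 and 1142 of Mmp7, beside 1304 of the 7. CCl4 macrophage and monocyte-like cells also held 125 of Mmp12, beside 179 of the 7. The ratio was 26.8 (24.5 to 29.4) in healthy and 11.1 (10.7 to 11.5) in CCl4 mesothelial-like cells, 11 (10.6 to 11.5) in healthy and 3.72 (3.49 to 3.97) in CCl4 endothelial-like cells, and 5.06 (4.76 to 5.37) in healthy cholangiocyte-like cells. The large-vessel endothelial cluster of the healthy library had the highest cluster value at 42.1 (33.8 to 53.0). Mesenchymal-like cells of the CCl4 library had 2.28 (2.25 to 2.30), the sum of 100841 TIMP and 44257 MMP UMIs. Their clusters ranged from 1.19 (1.17 to 1.21) in the Dpep1-Thbs4 cells over 2.35 (2.30 to 2.40) in the stellate-marker cells to 6.23 (6.06 to 6.4) in the Serpinb2-Enpp2 cells. Values under 1 were found in neutrophil-like cells, at 0.445 (0.368 to 0.536), and in healthy hepatocyte-like cells, at 0.557 (0.408 to 0.756). The neutrophil value was 0.225 without the 1 cell that held 86 of their 166 TIMP UMIs. Mmp9 was nearly the only one of the 7 MMPs in neutrophil-like cells (363 UMIs), but Mmp8, no member, had 330 UMIs there. In healthy hepatocyte-like cells Mmp19 was the main one of the 7. Within these healthy cells, the 48-cell deep cluster had 0.118 (11 TIMP against 93 MMP UMIs) and the 272-cell cluster 1.97. Of the 57 TIMP UMIs of the 272-cell cluster, 46 were of Timp3, and whether they include free RNA was not tested. A UMI of at least 1 TIMP and 1 MMP was found in 85.3% of CCl4 mesenchymal-like cells and 89.5% of CCl4 mesothelial-like cells. In healthy endothelial-like cells it was found in 41.1%, while 47.4% had TIMP UMIs without an MMP UMI. The reverse, MMP without TIMP, was seen in 32.6% of neutrophil-like cells. These are ratios and shares of transcripts captured, not of protein or activity.

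**Figure D3:**
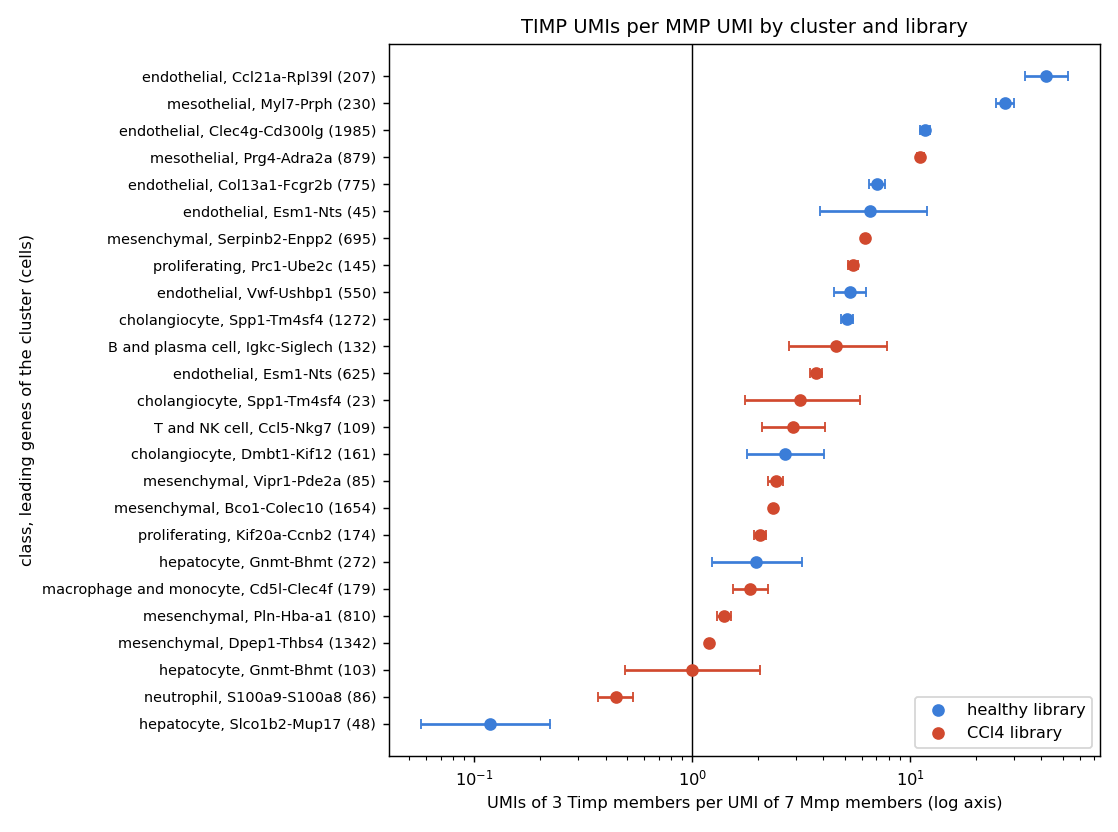
UMIs of the 3 TIMPs per UMI of the 7 MMPs (log axis) in each named or proliferating cluster with at least 20 cells of a library, in blue for the healthy and red for the CCl4 library, with 95% intervals. The healthy large-vessel endothelial cluster lies at 42.1, the Dpep1-Thbs4 mesenchymal-like cluster at 1.19 and the neutrophil-like cluster at 0.445.

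The comparison of the libraries within a class was made for mesothelial-, endothelial-, cholangiocyte- and hepatocyte-like cells. A gene with at least 20 UMIs over both libraries was called when its CPM ratio (CCl4 over healthy) was at least 2 or at most 0.5 and the counting interval left out 1. In mesothelial-like cells (cluster led by Myl7, 230 of the 232 healthy cells, against the cluster led by Prg4, all 879 CCl4 cells), 4 of the 7 members tested were called higher, where 11.3% of the 12452 genes tested were. Timp2 was called lower, where 12.3% of genes were. The median log2 ratio of the members was 1.14, beside -0.03 over all genes tested.

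Timp1 was 166 CPM in healthy and 431 in CCl4 mesothelial-like cells, a ratio of 2.59 (2.39 to 2.82), with 78.4% and 90.8% of cells positive. Mmp14 moved from 51.3 to 113 CPM (ratio 2.21, 1.91 to 2.57), and from 6 to 227 UMIs Mmp19 reached 14.1 CPM (ratio 9.02, 4.08 to 24.8). Mmp2 was also called (2.86 and 9.07 CPM, ratio 3.16, 1.72 to 6.48), but its CCl4 level lay between the 6.58 CPM of B and plasma cell-like and the 29.6 CPM of T and NK cell-like cells of the same library, the latter being 10.2 without 1 cell. The ratio was 10.9 when no doublets were removed. Timp2 went the other way, 0.446-fold (0.436 to 0.456), and Mmp23 was 0.750-fold (0.654 to 0.861) without passing the fold. Timp3 differed little, with a ratio of 1.09 (1.03 to 1.16). The sum of TIMPs accordingly stood at 3426 CPM in healthy and 2121 in CCl4 cells, the sum of MMPs at 128 and 191. When every cell was given the same weight the Mmp14 ratio was 1.95, under the fold.

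In endothelial-like cells 5 of the 7 members tested were called higher, where 5.81% of 12406 genes were, and 0 were called lower, where 16.2% of genes were. The median log2 ratio was 1.85 for the members and -0.30 over all genes. Mmp14 was 112 CPM in healthy and 263 in CCl4 cells (ratio 2.35, 2.18 to 2.52), and its CCl4 level was far above the 15.8 to 16.4 CPM of lymphoid cells. The other 4 were not: Timp2 (38.4 and 139 CPM, ratio 3.62, 3.25 to 4.03) stood at 133 and 158 CPM in B and plasma cell- and T and NK cell-like cells, and Mmp2 (0.532 and 12 CPM, ratio 22.5, 11.6 to 47.9), Timp1 (2.85 and 13.4 CPM) and Mmp23 (0.822 and 4.46 CPM) had CCl4 levels within or below the range of those lymphoid classes. Without the T and NK cell-like cell richest in Mmp2 the lymphoid range of that gene ended at 10.2 CPM, inside the counting interval of the endothelial level (8.92 to 15.8). For Timp2, 1 T and NK cell-like cell held 23 of 80 UMIs, and without it that class stood at 116 CPM (88.2 to 151). Endothelial Timp2 was then above both lymphoid values, but inside their counting intervals (106 to 166 in B and plasma cell-like cells). Col1a1, the main scar collagen chain, had 0.629 CPM in healthy and 158 in CCl4 endothelial-like cells beside 186 and 616 in CCl4 B and plasma cell- and T and NK cell-like cells. The part of free mesenchymal RNA in these 4 calls was not tested. Timp3, the main endothelial inhibitor, had a ratio of 0.732 (0.708 to 0.758), short of the fold.

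The endothelial comparison also crossed clusters, since 625 of the 642 CCl4 cells were in a cluster led by Esm1, Nts and Erg, and most healthy cells in clusters led by sinusoidal genes such as Clec4g. Mmp14 stood at 107 CPM in the healthy cluster led by Clec4g, 164 in that led by Col13a1, 165 in a low-depth one and 30.1 in the large-vessel one. The 45 healthy cells that fell in the Esm1 cluster had 218 CPM (124 to 353) from 16 UMIs, against 264 (248 to 280) in the 625 CCl4 cells of the same cluster, a ratio of 1.21 (0.743 to 2.13). In that cluster a difference of Mmp14 between libraries was thus not detectable at this depth. Timp3 did differ there, at 1428 CPM in healthy and 898 in CCl4 cells (ratio 0.629, 0.518 to 0.771). Timp2 had 0 UMIs in the 45 healthy cells (interval up to 50.2 CPM) against 134 CPM (123 to 146) in the CCl4 cells. With equal weight for every cell the class ratio of Mmp14 was 1.91.

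**Figure D4:**
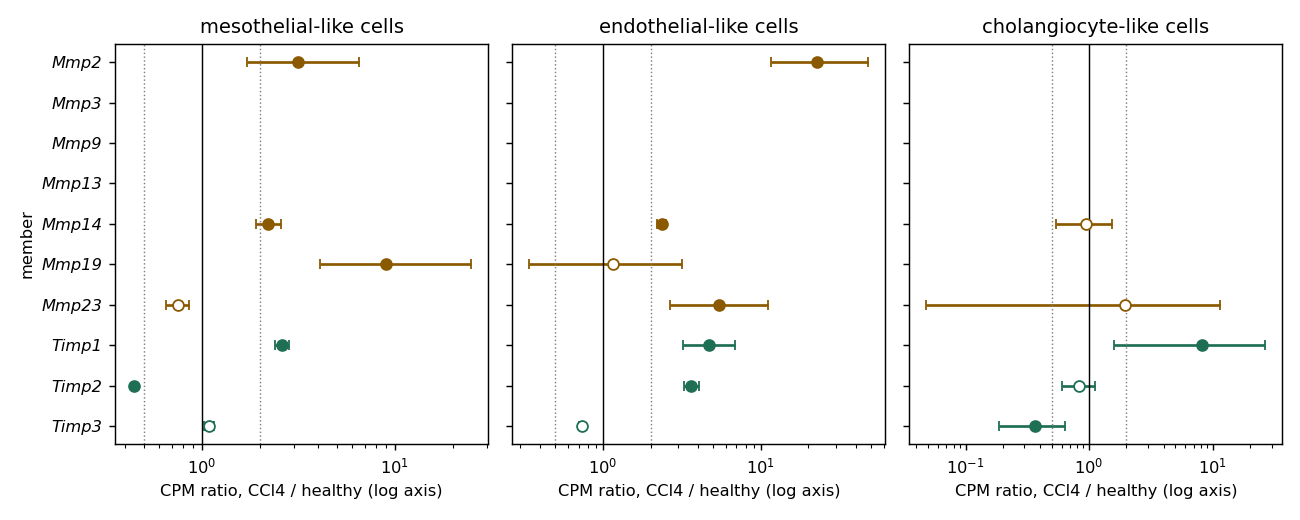
CPM ratio (CCl4 over healthy, log axis) with 95% conditional binomial intervals for each member tested in mesothelial-, endothelial- and cholangiocyte-like cells; filled points pass 2-fold (dotted lines) with an interval that leaves out 1. Timp2 lies at 0.446 in mesothelial-like and at 3.62 in endothelial-like cells, and Mmp14 is above 2 in both.

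**Figure D5:**
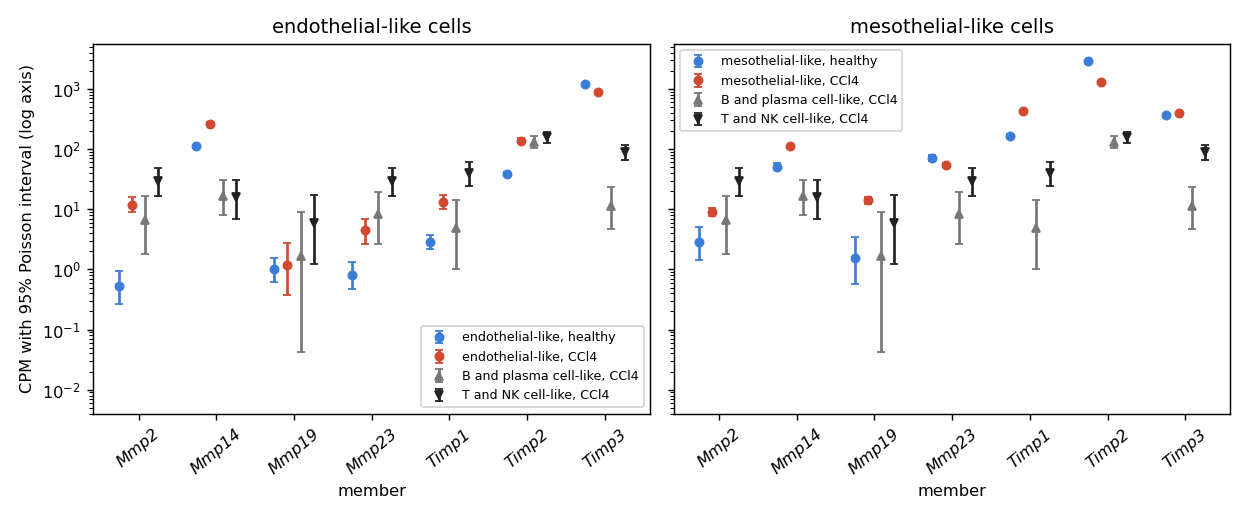
CPM (log axis, 95% Poisson intervals) of 7 members in endothelial-like (left) and mesothelial-like cells (right) of both libraries, beside B and plasma cell- and T and NK cell-like cells of the CCl4 library; a point at 0 is not drawn. Endothelial Mmp14 (263 CPM) and mesothelial Timp1 (431 CPM) lie above the lymphoid levels, whereas endothelial Timp2 (139 CPM) lies between them.

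Cholangiocyte-like cells were compared on only 33 CCl4 cells. Of the 5 members tested, Timp3 was called lower (134 and 48.6 CPM, ratio 0.362, 0.187 to 0.634), where 4.69% of 12523 genes were, and Timp1 was called higher, where 2.13% of genes were. The latter call rests on 3 CCl4 UMIs (ratio 8.23, 1.60 to 26.7). Healthy endothelial-like cells had 1221 CPM of Timp3, and the part of free RNA in the healthy cholangiocyte value of Timp3 was not tested. Mmp14 and Timp2 had ratios of 0.941 (0.536 to 1.53) and 0.828 (0.605 to 1.11), so that neither difference was detectable at this depth. In hepatocyte-like cells 1 of the 4 members tested was called higher, where 11.4% of 7582 genes were, and 0 were called lower, where 14.6% of genes were. It was Timp2, with 5.79 CPM (16 UMIs) in healthy and 47.3 CPM (14 UMIs) in CCl4 cells, a ratio of 8.16 (3.69 to 17.8) and a level below that of the lymphoid classes. This comparison crossed clusters, because all 103 CCl4 cells were in the cluster led by Gnmt and Bhmt, which held 272 of the 320 healthy cells, while the deep cluster was healthy only. Within the shared cluster Timp2 was 12.2 CPM in healthy and 47.3 in CCl4 cells, a ratio of 3.86 (1.63 to 9.40), and Timp3 was 51.2 and 6.75 CPM, the latter from 2 UMIs (ratio 0.132, 0.0155 to 0.504). The deep healthy cluster had 3.22 CPM of Timp3, and the part of free RNA in the healthy Timp3 values was not tested. The 26 healthy mesenchymal-like cells lay 13 in the low-depth cluster, 6 in the stellate-marker, 4 in the Dpep1-Thbs4 and 3 in the Serpinb2-Enpp2 cluster, so the class values of the libraries are given side by side above without a call.

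Depth differs between these classes, and shares of positive cells were therefore also expressed at 2000 UMIs per cell, without the cells that had fewer. For Timp2 the share was 100% in healthy and 99.8% in CCl4 mesothelial-like cells at full depth, and 99.0% and 88.8% after thinning. Timp1 gave 26.2% and 40.5% in the same cells, and Mmp14 11.5% and 20.7%. In endothelial-like cells the thinned share of Mmp14 was 21.7% in the healthy and 39.5% in the CCl4 library, and that of Timp3 82.1% and 72.4%. Mmp2 was found in 43.6% of thinned CCl4 mesenchymal-like cells and in 3.02% of T and NK cell-like cells. Each of these pairs kept the direction of its CPM.

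The other genes of matrix turnover were described from 8 lists. Over all genes tested, 11.3% were called higher and 12.3% lower in mesothelial-like cells, and 5.81% and 16.2% in endothelial-like cells. The counts of calls in each list below stand beside these shares. The lists are small, some of their counts lie near these shares, and no list was tested against them. Of the 11 further soluble MMPs, 10 were in both files. Their leaders were Mmp8, the neutrophil collagenase, with 993 CPM in neutrophil-like cells, Mmp12, the macrophage elastase, with 119 CPM in macrophage and monocyte-like cells, Mmp7, matrilysin, with 62.5 CPM in healthy cholangiocyte-like cells, and Mmp27 with 19 CPM in macrophage and monocyte-like cells. Only 1 of them could be tested between libraries in mesothelial- and 1 in endothelial-like cells, with no call. Among the 5 other membrane-anchored MMPs, Mmp15 led at 89.9 CPM in healthy cholangiocyte-like cells, where it exceeded Mmp14, followed by Mmp25 in neutrophil-like cells (57.2 CPM), Mmp17 (13.0) and Mmp16 (5.18) in CCl4 mesenchymal-like cells. Mmp17 was called higher in mesothelial-like cells, from 1.04 to 3.73 CPM.

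Other inhibitors were led by Pzp, a broad plasma protease inhibitor, at 506 CPM in healthy hepatocyte-like cells, Spock2, a testican, at 436 CPM in healthy mesothelial-like cells, Tfpi2 at 97.9 CPM in CCl4 hepatocyte-like cells and Reck, a membrane inhibitor of MMPs, at 60.1 CPM in healthy mesenchymal-like cells. In mesothelial-like cells 0 of 3 tested were called higher and 2 lower (Reck, 28.1 and 5.77 CPM, and Pzp), and Spock2 had a ratio of 0.594 (0.561 to 0.629). In endothelial-like cells 1 of 5 was lower. Of the 19 Adam and Adamts proteases, 7 were called higher and 4 lower of 15 in mesothelial-like cells, and 7 higher and 1 lower of 16 in endothelial-like cells. Their leaders were Adamts5 (737 CPM) and Adamts2 (367) in CCl4 mesenchymal-like, Adamts1 (686) in CCl4 endothelial-like and Adam33 (285) in healthy mesothelial-like cells. Between the libraries, Adamts1, an aggrecanase, went from 33.1 to 234 CPM and Adamts5, another, from 109 to 244 CPM in mesothelial-like cells. There Adam33 went from 285 to 43.0 CPM and Adamts2, a procollagen N-proteinase, from 177 to 63.5 CPM.

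The plasminogen system, whose plasmin can activate proMMPs, was led by S100a10 (1387 CPM) and Anxa2 (912 CPM), the subunits of a plasminogen receptor, and Pdpn (772 CPM) in healthy mesothelial-like cells, and by Plg, plasminogen itself, in healthy hepatocyte-like cells (809 CPM). In mesothelial-like cells 4 of 9 were called higher and 5 lower, among the latter S100a10 (ratio 0.401), Anxa2 (0.480) and Pdpn (0.270), and in endothelial-like cells 1 of 10 was higher and 3 lower. Cathepsins led the remaining matrix proteases, with Ctsb (3434 CPM), Ctsd (2555) and Ctss (1932) in macrophage and monocyte-like and Ctsl (1664) in healthy endothelial-like cells. In mesothelial-like cells 2 of 10 were higher and 2 lower, and in endothelial-like cells 1 of 10 was higher and 4 lower, with Ctsl at 0.484-fold (0.467 to 0.501).

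Among 10 activators, receptors and clearance factors, Bsg, the MMP inducer basigin, led at 4575 CPM in healthy mesothelial-like cells, ahead of Cd63, a tetraspanin that binds TIMP1 (1061 CPM, CCl4 mesenchymal-like), Lrp1, an endocytic receptor that clears MMPs and TIMPs (721 CPM, healthy mesenchymal-like), and Cd44, a docking receptor of MMP9 (500 CPM, neutrophil-like). In mesothelial-like cells 1 of 10 was called higher, Cd63 (105 and 288 CPM), and 5 lower, Bsg among them (ratio 0.284, 0.278 to 0.290), and in endothelial-like cells 3 of 9 were higher and 0 lower. Of the 16 substrates, Spp1 led at 25952 CPM in healthy cholangiocyte-like cells, Dcn at 12553 in healthy mesenchymal-like and Col3a1 and Col1a1 at 6945 and 3707 CPM in CCl4 mesenchymal-like cells. Substrates were called higher 6 and lower 4 times of 16 in mesothelial-like cells, and higher 11 and lower 2 times of 16 in endothelial-like cells, where Col1a1 lay at the lymphoid level given above. The basement membrane collagen gene Col4a1 was among those called higher in endothelial-like cells, at 605 CPM in healthy and 1490 in CCl4 cells.

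The genes whose level followed a member most closely were sought over the 23 clusters within a library with at least 50 cells, among 7833 genes, by Pearson's r of log2(CPM + 1). The clusters share 2 libraries and their free RNA, and the values are descriptions. Mmp2 went with Col6a3 (r = 0.970), Tnc (0.962) and Sparcl1 (0.962), Mmp23 with Adamts2 (0.967), Pde3a (0.966) and Antxr1 (0.963), and Mmp14, less tightly, with Spred1 (0.919) and Lpp (0.879). Mmp19 had Nnmt (0.833), Serpina3n (0.829) and Pdap1 (0.795). For the inhibitors, Timp1 followed Anxa1 (0.940), Ptgis (0.938) and Tmem119 (0.932), Timp2 followed Nupr1 (0.933), Eps8 (0.927) and Plod2 (0.926), and Timp3 followed Bmpr2 (0.960), Tjp1 (0.947) and Efnb1 (0.946). Between members, the values were 0.887 for Timp1 and Timp2, 0.870 for Mmp2 and Mmp23 and 0.750 for Mmp14 and Timp3, but 0.0422 for Mmp2 and Timp3.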

How the data were processed

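The deposited values are UMI counts: the authors gave 1 unnormalized matrix for every library, whose header names Cell Ranger (3.1.0 for healthy, 6.0.1 for CCl4) and in which no barcode had fewer than 500 UMIs. The study's methods instead describe an in-house pipeline with fastp and featureCounts 1.6.2 on GRCh38, and which of these made the files is unresolved. The submitters' notes name mm10 and GRCh38, and all gene identifiers are of mouse. The matrices held 6297 and 8460 barcodes. Cells with at least 500 UMIs, 200 genes, at most 30% mitochondrial and under 5% globin UMIs were kept, and Scrublet's top scores were removed at 0.8% per 1000 cells (277 and 484 cells). The cells of both were then clustered jointly, with no batch integration (scanpy 1.11.5, 2000 variable genes without the members and matrix lists, 10 principal components, 20 neighbours, Leiden resolution 1). A cluster was named from at least 3 markers at 2-fold or more over all other cells and in at least 10% of its cells. The naming thresholds, the globin limit and the separate handling of proliferating clusters were set after seeing the data, and rebuilt names can differ from those of the study. UMIs were summed per class and library, with exact Poisson, conditional binomial and Clopper-Pearson intervals (scipy 1.17.1). The ratio script was tested on simulated data. edgeR 4.0.16 gave TMM factors as an alternative only. The members and lists were chosen with earlier results of these data known. Named are the 10 members, of each list the up to 4 genes with the highest CPM in any population, and the 3 genes most correlated with each member of 500 UMIs or more; Lrat, Col4a1 and any other gene outside this rule were named after their values were seen. A gene that this rule named is not reported here.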

Additional observations from a re-analysis of the deposited data

Results flagged for a closer look

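Timp2 passed the 2-fold limit in opposite directions in different classes, which was not tested as a difference because each condition had 1 library. Its CPM ratio (CCl4 over healthy) was 0.446 in mesothelial-like cells, 3.62 in endothelial-like cells and 8.16 in hepatocyte-like cells. The hepatocyte value sets 2 healthy clusters against 1, and within the shared cluster the ratio was 3.86 (1.63 to 9.40). B and plasma cell-like cells of the CCl4 library had 133 CPM (106 to 166). The CCl4 endothelial level (139 CPM) lay inside that interval and the hepatocyte level (47.3 CPM) below it, whereas the mesothelial level (1290 CPM) was above it. How far free RNA enters the endothelial and hepatocyte ratios was not tested.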

How the results depend on the processing

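Over 12 alternatives no ratio of a member that was called changed its direction where it could be computed. Hepatocyte-like ratios, the called Timp2 among them, were not available in several alternatives. These were no doublet removal, a mitochondrial limit of 10%, at least 1000 UMIs per cell and 30 principal components. The same held with member and matrix genes left in the clustering and with globin-rich cells kept. The number of members highest in CCl4 mesenchymal-like cells was 3 or 4 throughout, with Mmp19 added under a mitochondrial limit of 10% and Mmp14 added when globin-rich cells were kept. The counts of called members in mesothelial-like cells were 4 or 5 and in endothelial-like cells 4 or 5 in the alternatives that gave a value, the lower counts falling to equal weight for every cell, and in cholangiocyte-like cells 2 or 3. Keeping globin-rich cells left the CCl4 endothelial cluster unnamed, so that no endothelial value could be had. The ratio of TIMP to MMP UMIs in CCl4 mesenchymal-like cells was 2.28, and moved beyond its counting interval to 2.34 with a mitochondrial limit of 10%, 2.36 with 30 principal components, 2.31 with globin-rich cells kept (an alternative chosen after seeing the data) and 1.93 with every cell weighing the same. It was 2.30 without the low-depth cluster and the cluster with endothelial markers, also chosen after seeing the data. That alternative kept the Serpinb2-Enpp2 cluster, whose mesenchymal name rests on fewer genes and whose own ratio was 6.23 (37430 TIMP and 6011 MMP UMIs). The class ratio without the Serpinb2-Enpp2 cluster was not taken, so its dependence on that cluster is not covered here. Of 228 values of single member ratios, 200 stayed within the counting interval of the reported value and 28 did not, among them 6 of the mesenchymal-like class with member and matrix genes left in the clustering, where Mmp14 reached 12.5. TMM scaling moved the median log2 ratio of all genes in endothelial-like cells from -0.30 to -0.10 without changing a count. Added after seeing the data, leaving out the 1 richest cell moved Timp1 in the 145-cell proliferating cluster from 789 to 476 CPM, Mmp2 in T and NK cell-like cells from 29.6 to 10.2 CPM and the TIMP per MMP ratio of neutrophil-like cells from 0.445 to 0.225. No paired analysis was possible because the labels give no replicate numbers and each condition has 1 library.

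Depth limits the 33 CCl4 cholangiocyte-like, 103 CCl4 hepatocyte-like and 26 healthy mesenchymal-like cells most. Condition, library, Cell Ranger version and sequencing depth cannot be told apart.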
